A study of Mus musculus with 6 samples.

Results

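The immediate-early and AP-1 genes described here are *Fos*, *Fosb*, *Jun*, *Junb*, *Jund*, *Egr1*, *Ier2*, *Klf2*, *Klf6* and *Dusp1*, 10 of the 38293 genes in the count tables. They were chosen by name, matched from symbol to mouse Ensembl identifier, and all 10 were found. RNA was from fetal liver (FL) of E14.5 C57BL/6 embryos, with 3 libraries labelled wild-type for hnRNPL (wt) and 3 labelled Knock-Out, which were VavCre+ hnRNP L fl/fl (hnRNP L deficient), each from 1 embryo. By the study's methods the cells were sorted as Lin-cKit+, the lineage-negative fraction that holds stem and progenitor cells, whereas the tissue field of the labels reads whole embryo. hnRNP L is an RNA-binding protein that regulates splicing, and Cre driven by the Vav promoter deletes its floxed gene in hematopoietic cells and leaves it intact in most others. The study describes its wt RNA-Seq samples as L fl/fl, so that the wt embryos also carried floxed alleles. The question asked of the genes was how far their levels moved together between libraries of one genotype, and how that spread compared to the difference between the genotypes.

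Immediate-early genes are transcribed within minutes of a stimulus, without new protein synthesis, through factors such as SRF, ELK and CREB that MAP kinases switch on, and their mRNAs are short-lived. The Fos and Jun proteins pair through leucine zippers to form AP-1, which binds DNA at TPA-response and cAMP-response elements (CRE), while DUSP1 removes phosphate from MAP kinases and so closes the loop. In blood progenitors JunB restrains expansion of the myeloid lineage, EGR1 is known for its role in stem cell quiescence, and many of these genes are also known to rise when tissue is dissociated and cells are sorted.

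The promoters of *Junb*, *Fos* and *Dusp1* are shown because *Junb* differed between the genotypes, *Fos* varied most within wt, and *Dusp1* held a full CRE, the one found in the 8 members searched. The sequences are from RefSeq (GRCm38.p6), end at the base before the transcription start, and read 5′ to 3′ on the gene's strand, and capitals mark the CRE, its core and the TATA box. They lie at chr8:84978749-84978898 (- strand) for *Junb*, chr12:85473740-85473889 (+ strand) for *Fos* and chr17:26508473-26508722 (- strand) for *Dusp1*.
Junb: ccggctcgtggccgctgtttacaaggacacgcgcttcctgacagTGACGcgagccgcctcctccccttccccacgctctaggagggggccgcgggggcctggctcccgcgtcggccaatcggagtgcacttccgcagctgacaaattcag
Fos: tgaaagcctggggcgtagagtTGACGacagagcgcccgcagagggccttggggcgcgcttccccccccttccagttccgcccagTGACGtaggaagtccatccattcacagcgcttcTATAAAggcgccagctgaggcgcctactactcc
Dusp1: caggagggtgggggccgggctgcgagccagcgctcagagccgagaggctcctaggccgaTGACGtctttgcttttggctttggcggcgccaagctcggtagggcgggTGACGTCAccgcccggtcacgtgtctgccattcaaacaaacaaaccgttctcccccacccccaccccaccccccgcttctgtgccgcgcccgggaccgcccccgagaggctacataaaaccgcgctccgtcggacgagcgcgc

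The RefSeq promoter table held 8 of the 10 members, without *Egr1* and *Ier2*, and the 250 bases before each start were searched on both strands. The CRE, TGACGTCA, was found in 1 of the 8 members (*Dusp1*, at position -143) and in 1.55% of all 32851 promoters of the same length. Its core, TGACG, which lies inside the full CRE, was found in 5 members (*Fos*, *Fosb*, *Junb*, *Klf2* and *Dusp1*) and in 17.8% of all promoters. In *Fos* the cores were at positions -129 and -66 and the TATA box, TATAAA, at -33, and in *Junb* the core was at -106. The TATA box was found in 1 member and in 12.4% of all promoters. The EGR motif, GCGNGGGCG, was found in 2 members (*Fosb* and *Klf2*) and in 4.7% of all promoters, and the GC box, GGGCGG, in 6 members and in 32.7%. An AP-1 site, TGANTCA, was found in 0 of the 8 members and in 6.75% of all promoters, and a CArG box, the element that SRF binds, in 0 members and in 1.47%. These matches describe letters in a window, and binding was not measured. Sites farther than 250 bases from the start were not searched, so that a motif absent here may still lie elsewhere at the gene.

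Each library held from 55952160 to 76157226 reads on genes, so that 3 reads corresponded to between 0.0394 and 0.0536 CPM, the counts scaled to the TMM-normalized library size. *Hnrnpl* itself was at 528 to 552 CPM in wt and at 242 to 288 CPM in hnRNP L deficient libraries, a count over the whole gene that does not separate the floxed part. The libraries differed in markers of other cells. Summed CPM of 12 granulocyte markers (*Mpo*, *Elane*, *S100a8* and others) was 566, 9150 and 1482 in wt replicates 1 to 3. It was 242, 1114 and 1198 for hnRNP L deficient replicates 1 to 3, so that wt replicate 2 stood apart in this sum. *Mpo* weighed most in it, at 5615 CPM in wt replicate 2. All 12 markers were highest among wt in replicate 2, and 9 of the 12 had a negative log2 fold change. *Ltf*, *Ngp* and *Lcn2* were instead highest in hnRNP L deficient replicates 2 and 3. *Ltf* was at 36.8 and 44.6 CPM there against 9.66 CPM in wt replicate 2, and *Lcn2* at 19.5 and 23.8 CPM against 12.8 CPM. In the same order the 14 monocyte and macrophage markers summed to 50.1, 365 and 100.5 CPM against 15.3, 59.9 and 65.0 CPM, and the 12 hepatocyte markers to 177, 126 and 262 CPM against 26.6, 81.3 and 77.6 CPM. The 12 stem and progenitor markers summed to 971, 1389 and 1340 CPM against 842, 760 and 785 CPM, and the 12 lymphoid markers to between 7.17 and 32.1 CPM against 2.31 to 3.73 CPM, with *Ncr1* and *Dntt* at 0 reads in all 6 libraries. Their part in the results below was not tested. In such bulk RNA fewer cells of a type and less RNA per cell cannot be told apart.

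Of the 10 genes, 9 passed the expression filter and were tested, and 2 of them, *Egr1* and *Junb*, were higher in hnRNP L deficient FL cells at an adjusted p-value under 0.05 (edgeR's quasi-likelihood test with Benjamini-Hochberg adjustment). Among all 14396 genes tested, 9.32% were called higher, 9.85% lower and 19.2% in either direction. Lower calls among the members numbered 0 with edgeR, 2 with DESeq2 (*Fos* and *Klf6*) and 1 with limma-voom (*Fos*). These 2 other tools called more genes lower in all, 2227 of 15531 with DESeq2 and 2774 of 14396 with limma-voom. An unadjusted p-value under 0.05 was reached by 5 of the 9 (*Fos*, *Junb*, *Egr1*, *Ier2* and *Klf6*), and by 37.6% of all genes tested. In 4 members (*Junb*, *Jund*, *Egr1* and *Ier2*) every hnRNP L deficient library lay above every wt library, and in 2 (*Fos* and *Klf6*) every one lay below, where the background was 22.7% of all genes in the higher and 22.7% in the lower direction. The median log2 fold change was 0.35 over the 9 members, between -1.73 and 4.00, and -0.026 over all genes tested.

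**Figure D1:**
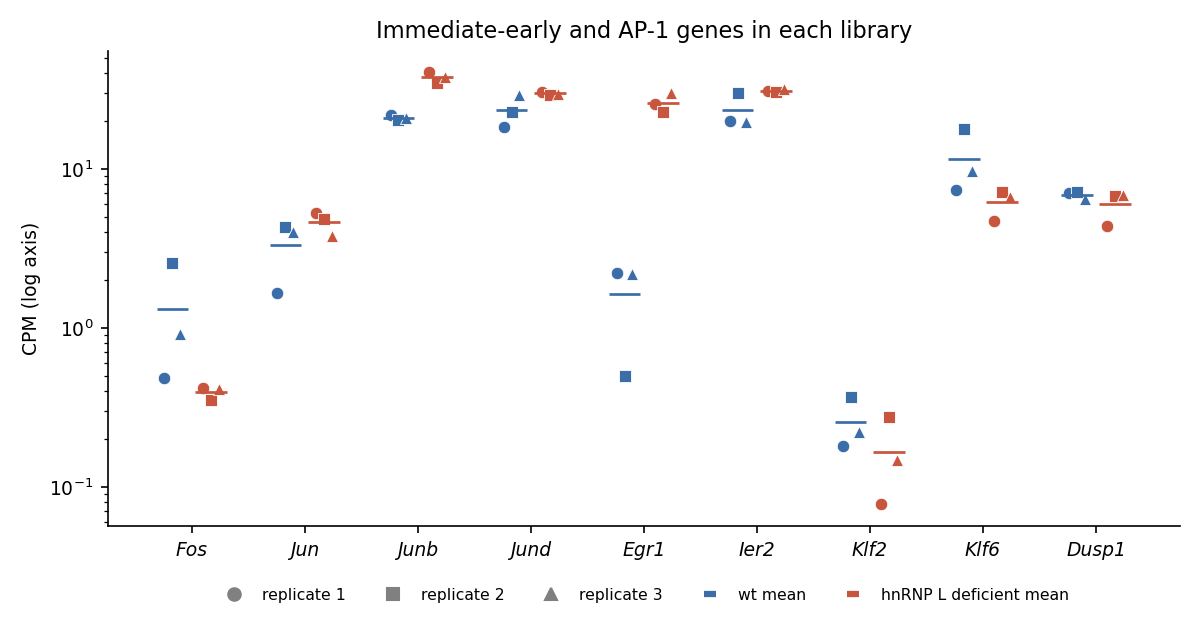
CPM of 9 members in each of the 6 libraries on a log axis, with wt in blue, hnRNP L deficient in red, 1 symbol per replicate number and a line at each genotype mean. *Egr1* lies between 0.5003 and 2.20 CPM in wt and between 22.6 and 30.0 CPM in hnRNP L deficient libraries, while the *Fos* values of wt spread from 0.486 to 2.55 CPM; *Fosb*, at 0 to 10 reads, is not drawn.

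*Fos* encodes the founding AP-1 subunit and was weakly expressed. It was at 0.486, 2.55 and 0.908 CPM in wt replicates 1 to 3 and in the hnRNP L deficient replicates it was at 0.419, 0.352 and 0.415 CPM. The groups did not overlap, but wt replicate 1 lay close to the hnRNP L deficient libraries and wt replicate 2 stood 5.25 times above it. The log2 fold change of -1.73 (SE 0.61) did not pass the test (adjusted p = 0.0846 by edgeR). Without wt replicate 1 it was -2.11 (adjusted p = 0.0244 by edgeR), and without wt replicate 2 it was -0.82. The wt library with the most *Fos* was also the one with the most granulocyte marker reads. It also had the highest sums of the monocyte, lymphoid, and stem and progenitor lists. Without that library and hnRNP L deficient replicate 1, which had the fewest granulocyte marker reads, the log2 fold change was -0.87. *Fosb*, whose product replaces Fos in AP-1, had 3, 0 and 1 reads in wt and 3, 10 and 7 reads in hnRNP L deficient libraries, and was not tested.

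The Jun genes encode the partners of Fos and can also pair among themselves. *Junb* was at 21.6, 20.4 and 21.0 CPM in wt and at 40.4, 34.7 and 37.6 CPM in hnRNP L deficient libraries. Both genotypes were tight and far apart, with a log2 fold change of 0.84 (SE 0.091, adjusted p = 0.00985 by edgeR), a fold of 1.79. *Junb* had the 46th smallest p-value of all genes tested.
*Jund* was at 18.3, 22.8 and 28.9 CPM in wt and at 30.6, 29.2 and 29.7 CPM in hnRNP L deficient libraries. The groups did not overlap, with the highest wt library just below the other genotype, and the log2 fold change of 0.35 (SE 0.16) did not pass the test (adjusted p = 0.16 by edgeR). It was 0.21 without wt replicate 1 and 0.54 without wt replicate 3. *Jun* was at 1.66, 4.29 and 3.98 CPM in wt and at 5.28, 4.85 and 3.75 CPM in hnRNP L deficient libraries. These values overlapped, with wt replicate 1 low, and the log2 fold change was 0.48 (SE 0.36, adjusted p = 0.368 by edgeR). It was 0.17 without wt replicate 1 and 0.71 without wt replicate 2.

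*Egr1*, a zinc finger transcription factor downstream of SRF and ELK proteins, had the largest difference of the 9 members. It was at 2.20, 0.5003 and 2.19 CPM in wt and at 25.6, 22.6 and 30.0 CPM in hnRNP L deficient libraries. The lowest hnRNP L deficient library was far above the highest wt library, and wt replicate 2, with the most *Fos*, had the least *Egr1*. The log2 fold change was 4.00 (SE 0.55, 95% interval 2.67 to 5.33, adjusted p = 0.0144 by edgeR), and 33 of the 14396 genes tested had a larger one. On the *Egr1* gene itself the reads of wt replicates 1 to 3 numbered 122, 30 and 159 and those of the hnRNP L deficient replicates 1651, 1476 and 2243, so that counting error was largest for wt replicate 2.

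The calls of *Egr1* and *Junb* did not survive the loss of some single libraries. Without wt replicate 3 the adjusted p-values by edgeR were 0.053 and 0.0517, and without hnRNP L deficient replicate 1, 2 or 3 they were 0.0706, 0.0705 and 0.0926 for *Egr1* and 0.0598, 0.0626 and 0.0867 for *Junb*. Across these fits and without wt replicate 1 or 2 the log2 fold change of *Egr1* stayed between 3.57 and 4.28, and that of *Junb* between 0.79 and 0.91. Few genes of any kind were called with 5 of the libraries in those 4 fits, between 5 and 15 higher in place of 1341.

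**Figure D2:**
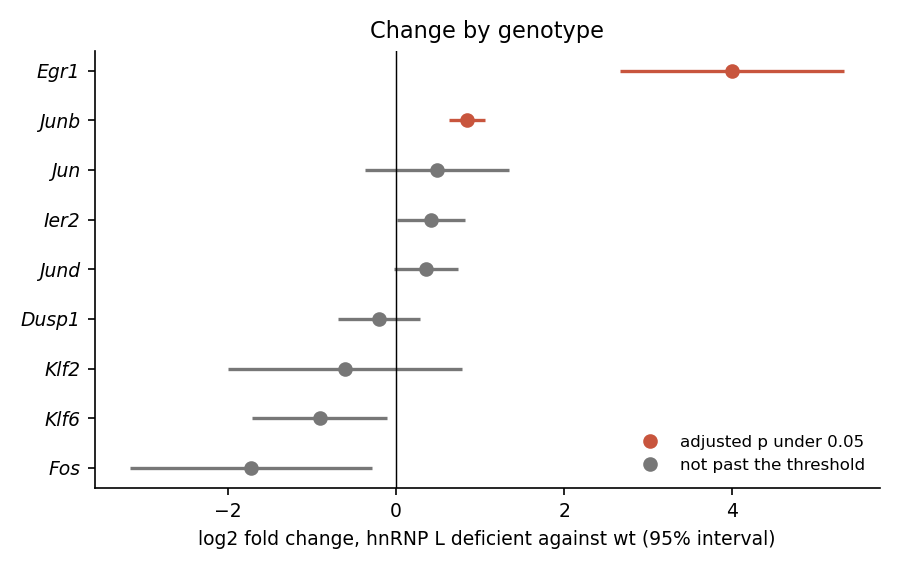
Log2 fold change of the 9 tested members, hnRNP L deficient against wt, with 95% intervals from the edgeR fit. *Egr1* at 4.00 and *Junb* at 0.84 are drawn in red as past an adjusted p of 0.05, and *Fos* at -1.73 has the widest interval of all.

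*Ier2* encodes a small nuclear protein of the immediate-early response. It was at 20.0, 30.1 and 19.8 CPM in wt and at 30.7, 30.3 and 31.8 CPM in hnRNP L deficient libraries, so that wt replicate 2 reached almost the level of the other genotype and the other two wt libraries did not. The log2 fold change of 0.41 (SE 0.17) did not pass the test (adjusted p = 0.13 by edgeR), and with limma-voom it was 0.59 and passed (adjusted p = 0.00362). It was 0.64 without wt replicate 2 (adjusted p = 0.00502 by edgeR), and the same to 2 decimals without both wt replicate 2 and hnRNP L deficient replicate 1 (adjusted p = 0.0295 by edgeR).

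*Klf6*, a Kruppel-like zinc finger factor induced by injury and growth signals, was at 7.33, 17.7 and 9.66 CPM in wt and at 4.72, 7.11 and 6.63 CPM in hnRNP L deficient libraries. The groups met closely, at 7.33 CPM in wt replicate 1 and 7.11 CPM in hnRNP L deficient replicate 2, and the log2 fold change was -0.91 (SE 0.34, adjusted p = 0.0995 by edgeR). Without wt replicate 1 it was -1.15 (adjusted p = 0.0374 by edgeR), without wt replicate 2 it was -0.46, and without wt replicate 2 and hnRNP L deficient replicate 1 together it was -0.31. As with *Fos*, *Klf6* was highest in wt replicate 2, which had the highest sums of the granulocyte and several other marker lists. *Klf2*, the Kruppel-like factor of quiescent lymphocytes and endothelium, was near the floor, at 0.180, 0.367 and 0.220 CPM in wt and at 0.0777, 0.275 and 0.147 CPM in hnRNP L deficient libraries. Its log2 fold change of -0.61 had an SE of 0.59 (adjusted p = 0.482 by edgeR), and a difference was not detectable at this depth. It was -0.27 without wt replicate 2 or without hnRNP L deficient replicate 1, and -1.14 without hnRNP L deficient replicate 2.

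*Dusp1*, the phosphatase that ends MAP kinase signaling, was at 7.04, 7.10 and 6.50 CPM in wt and at 4.395, 6.76 and 6.79 CPM in hnRNP L deficient libraries. The values of hnRNP L deficient replicates 2 and 3 lay inside the wt range and replicate 1 lay below. The log2 fold change was -0.20 (SE 0.21, 95% interval -0.69 to 0.29, adjusted p = 0.511 by edgeR), and without hnRNP L deficient replicate 1 it was -0.017.

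Levels of different genes were compared as RPKM, the counts scaled in the same way and divided by the length of the merged exons. In wt the order from high to low was *Ier2* (15.3 ± 3.89 RPKM, SD, n = 3), *Jund* (13.98 ± 3.21 RPKM), *Junb* (9.13 ± 0.274 RPKM), *Klf6*, *Dusp1*, *Jun*, *Fos*, *Egr1*, *Klf2* and *Fosb*. *Ier2* and *Jund* did not differ beyond their spread in wt. *Klf6* (2.63 ± 1.24 RPKM) and *Dusp1* (2.08 ± 0.101 RPKM) did not either, and the same held of *Fos* (0.559 ± 0.464 RPKM) and *Egr1* (0.363 ± 0.218 RPKM). In hnRNP L deficient libraries *Ier2* (20.3 ± 0.498 RPKM), *Jund* (17.9 ± 0.417 RPKM) and *Junb* (16.3 ± 1.24 RPKM) again came first. *Egr1* (5.82 ± 0.837 RPKM) was the 4th there, against the 8th in wt, and *Klf6* (1.40 ± 0.288 RPKM) the 7th, within the spread of *Jun* (1.45 ± 0.247 RPKM).

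Within the Fos and Jun families, most mRNA was of the Jun family in every library. Summed RPKM of *Jun*, *Junb* and *Jund* was 20.9, 23.8 and 27.7 in wt and 37.5, 34.1 and 35.3 in hnRNP L deficient libraries, without overlap. Summed RPKM of *Fos*, *Fosb*, *Fosl1* and *Fosl2* was 0.528, 2.74 and 1.07 in wt and 0.767, 0.893 and 0.972 in hnRNP L deficient libraries, which lay inside the wt range. The Fos family differed in its makeup. *Fosl2* was the largest part of it in wt, at 52.5%, 60.4% and 60.4%, and made up 27.0%, 29.9% and 40.3% in hnRNP L deficient libraries. *Fos* made up 39.2%, 39.6% and 36.2% in wt and 23.2%, 16.8% and 18.2% in hnRNP L deficient libraries, there on 27, 23 and 31 reads. *Fosl1*, which encodes the subunit Fra-1, made up 6.71%, 0% and 3.17% in wt, where it was at most 0.0720 CPM, and 48.8%, 50.6% and 40.0% in hnRNP L deficient libraries. With 3 embryos a side the smallest p of an exact permutation test is 0.1, and these shares were not tested.

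**Figure D3:**
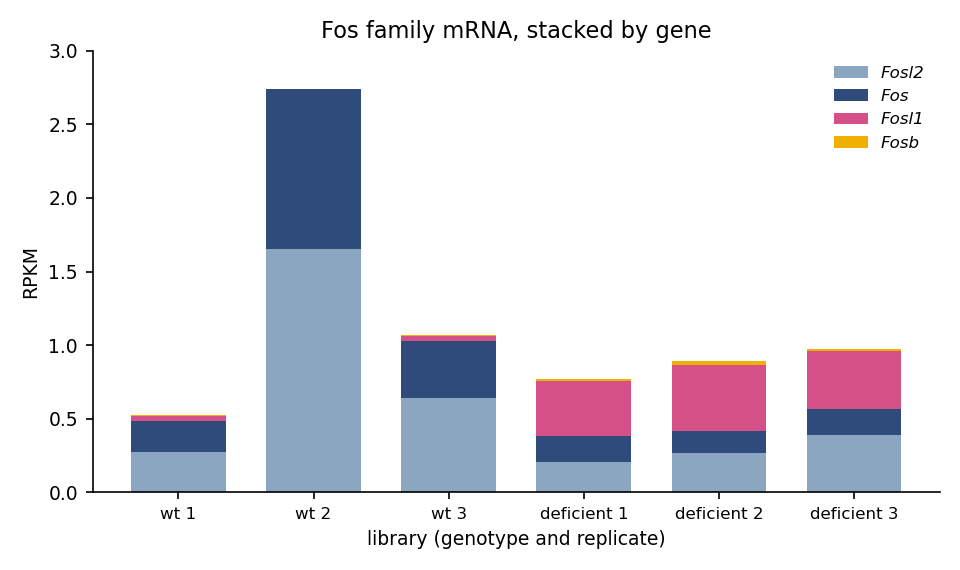
Summed RPKM of the Fos family in each library, stacked by gene. *Fosl1* takes 40.0% to 50.6% of the bar in the 3 hnRNP L deficient libraries and at most 6.71% in the wt libraries, of which wt replicate 2 has the tallest bar at 2.74 RPKM.

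The spread within a genotype was set beside the difference between the genotypes on log2 CPM with a prior count of 2. The difference of the genotype means was larger than the range within either genotype for 2 of the 9 members, *Egr1* (4.23 against ranges of 2.07 in wt and 0.41 in hnRNP L deficient libraries) and *Junb* (0.84 against 0.087 and 0.22). This held for 28.5% of all genes tested. For *Fos* the genotypes differed by -1.34 and the wt libraries spanned 2.32, for *Klf6* by -0.83 with a wt span of 1.27, and for *Jun* by 0.58 with a wt span of 1.36. The wt range was the wider in 6 of 9 members and in 81.8% of all genes tested, with a median of 0.92 in wt and 0.41 in hnRNP L deficient libraries for the members and of 0.45 and 0.18 for all genes.

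Members did not move as 1 block among the wt libraries. Replicate 2 was the highest wt library for 6 of 9 members (*Fos*, *Jun*, *Ier2*, *Klf2*, *Klf6* and *Dusp1*) and for 39.9% of all genes tested, and it was the lowest for *Junb* and *Egr1*. Its median deviation from the wt mean over the 9 members was 0.40 on the log2 scale, against -0.33 in replicate 1 and -0.081 in replicate 3. Replicate 1 was the lowest wt library for 5 members (*Fos*, *Jun*, *Jund*, *Klf2* and *Klf6*) and for 37.9% of all genes. The deviation of *Fos* was 1.26 in wt replicate 2 and -1.06 in replicate 1, whereas *Egr1* deviated by -1.38 in replicate 2 and by 0.69 in each of the other two. The hnRNP L deficient libraries had median deviations of -0.012, -0.028 and 0.040. Replicate 1, with the fewest granulocyte marker reads, was the lowest of them for 3 of 9 members (*Klf2*, *Klf6* and *Dusp1*) and for 39.8% of all genes, and the highest for 4 (*Fos*, *Jun*, *Junb* and *Jund*) and for 38.9% of all genes.

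**Figure D4:**
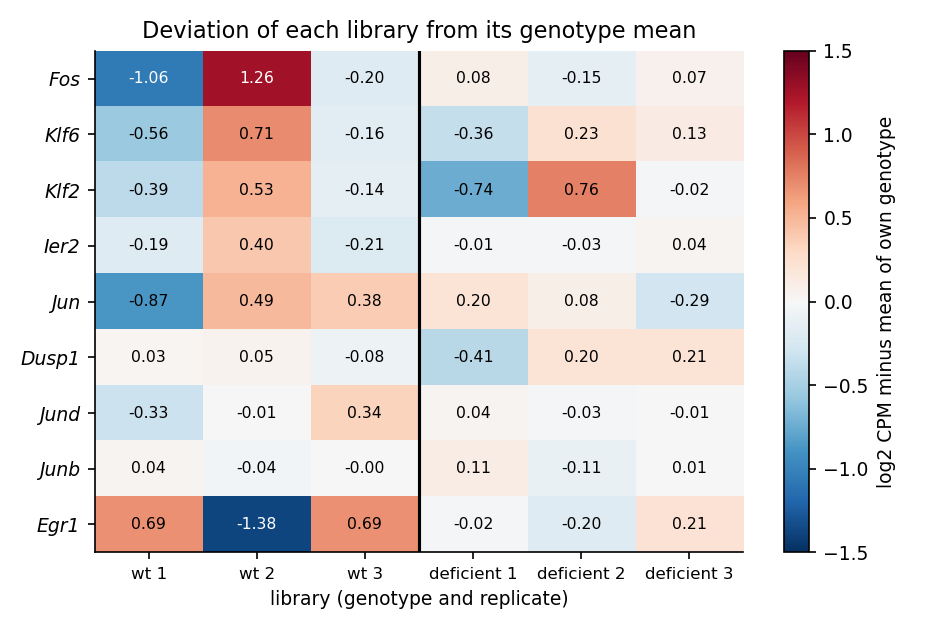
Deviation of log2 CPM in each library from the mean of its own genotype for the 9 tested members, with red above and blue below the mean. In wt replicate 2 *Fos* is at 1.26, *Klf6* at 0.71 and *Egr1* at -1.38, and deviations among the hnRNP L deficient libraries exceed 0.5 in size for *Klf2* alone, at -0.74 and 0.76.

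Of 27 other immediate-early genes tested, 15 were also highest among wt in replicate 2, as were 39.9% of all genes. Their median deviation was 0.22 there and -0.32 in replicate 1. The summed CPM of 14 heat shock and dissociation stress genes took another order, at 13095, 8540 and 9109 in wt and 14595, 13342 and 13242 in hnRNP L deficient libraries. In that sum wt replicate 1, low in *Fos* and *Jun*, was the highest wt library. Abundant chaperones weigh most in it, with *Hsp90ab1* alone at 5085, 4063 and 4259 CPM in wt. Replicate 1 was the highest wt library for 10 of the 13 tested genes of the list and for 33.8% of all genes. Replicate 2 was the highest for 2, *Hspa1a* (0, 0.800 and 0.0551 CPM in wt) and *Hspa1b* (0.954, 3.25 and 0.895 CPM), as it was for *Fos*. Whether handling of the cells had a part in the members' spread was not tested. The 5 genes outside the members whose deviations in the 6 libraries were most like the members' median were *Fchsd2*, *Sft2d2*, *Man2b2*, *Cgnl1* and *Hmga2*, with root mean square differences of 0.0212 to 0.0317 on the log2 scale. Among the members *Ier2* lay closest to that median (0.0758) and *Egr1* farthest from it (0.898). *Ier2* was itself the median member in wt replicate 2 and in all 3 hnRNP L deficient libraries, so that its closeness was largely given by construction. Of the genes outside the members, 219 lay closer to the median than *Ier2*, and from 5253 to 13852 lay closer than each of the other members.

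Among other AP-1 subunits 1 of the 5 tested passed the test. *Fosl1* was at 0.0720, 0 and 0.0688 CPM in wt and at 0.761, 0.918 and 0.790 CPM in hnRNP L deficient libraries (log2 fold change 4.06, SE 0.73, adjusted p = 0.018 by edgeR). *Jdp2*, which encodes a repressive partner of Jun, was at 1.06, 10.5 and 3.56 CPM in wt and at 0.854, 1.59 and 2.52 CPM in hnRNP L deficient libraries, with wt replicate 2 again high, and did not pass (adjusted p = 0.207 by edgeR). The list had a median log2 fold change of -0.56. Other immediate-early genes had 3 of 27 called higher and 11 with an unadjusted p-value under 0.05, with a median of -0.059. The shares among all genes tested were 9.32% and 37.6%. *Plk2*, a kinase of the stress response, was at 0.504, 0.0667 and 0.0413 CPM in wt and at 12.9, 16.0 and 17.2 CPM in hnRNP L deficient libraries (log2 fold change 6.28, adjusted p = 0.0144 by edgeR). Its relative *Plk3* was at 0.900, 0.600 and 0.895 CPM against 3.15, 2.52 and 3.28 CPM (1.90, adjusted p = 0.0138 by edgeR), and the small Maf factor *Mafk* had a log2 fold change of 0.38 (adjusted p = 0.0461 by edgeR). The other EGR genes stayed at the floor, with *Egr2* at 0 CPM in wt and at most 0.0777 CPM in hnRNP L deficient libraries, *Egr3* at 0 CPM in all but 1 library and *Egr4* at 0 CPM in all 6.

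Of 15 MAP kinase phosphatases and feedback genes 2 were higher and 1 lower. *Spry4*, an inhibitor of receptor tyrosine kinase signaling, was at 6.00, 3.37 and 8.11 CPM in wt and at 16.4, 15.0 and 14.7 CPM in hnRNP L deficient libraries (log2 fold change 1.40, adjusted p = 0.0253 by edgeR), and its relative *Spred1* rose by 0.38 on the log2 scale (adjusted p = 0.0414 by edgeR). *Dusp5*, a nuclear phosphatase of ERK, was at 3.20, 7.59 and 3.58 CPM in wt and at 1.65, 1.74 and 1.55 CPM in hnRNP L deficient libraries (-1.54, adjusted p = 0.0305 by edgeR). Among 30 upstream kinases and promoter factors 7 were lower and 1 higher, where 9.85% of all genes tested were called lower and 9.32% higher. *Elk3*, a partner of SRF, was at 18.4, 43.3 and 19.2 CPM in wt and at 6.38, 6.43 and 5.57 CPM in hnRNP L deficient libraries (-2.14, adjusted p = 0.0159 by edgeR). *Mef2c* had a log2 fold change of -0.99 (adjusted p = 0.023 by edgeR), and of 2 kinases that activate p38, *Map2k6* had one of -0.62 and *Map2k3* one of 0.33 (adjusted p = 0.0189 and 0.0187 by edgeR).

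The list of other Kruppel-like factors left out *Klf4* and *Klf10*, which were among the other immediate-early genes. Neither passed, with log2 fold changes of -3.13 and -0.17 (adjusted p = 0.0654 and 0.318 by edgeR). *Klf4* was at 0.702, 3.65 and 0.674 CPM in wt and at 0.0311, 0.184 and 0.348 CPM in hnRNP L deficient libraries. Of the 10 genes of the Kruppel-like list tested 1 passed, *Klf13*, with a log2 fold change of -0.46 (adjusted p = 0.0497 by edgeR). *Klf11* and *Klf12* had the largest differences of that list, at -0.79 and -1.16, and did not pass (adjusted p = 0.0527 and 0.282 by edgeR). Of 12 factors that act on AU-rich elements, through which the mRNAs of *Fos* and other immediate-early genes are degraded, *Tia1* passed at -0.41 (adjusted p = 0.022 by edgeR). *Zfp36*, itself an immediate-early gene, was at 4.27, 11.0 and 5.40 CPM in wt and at 2.73, 3.61 and 2.63 CPM in hnRNP L deficient libraries (-1.21, adjusted p = 0.062 by edgeR), again with wt replicate 2 high. Of 13 heat shock and dissociation stress genes tested, *Hsf1* (0.37, adjusted p = 0.0407 by edgeR) and *Bag3* (0.45, adjusted p = 0.0475 by edgeR) were higher, and 12 had a positive log2 fold change, with a median of 0.41. Among all genes tested 52.5% had a negative log2 fold change and 9.32% were called higher.

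**Figure D5:**
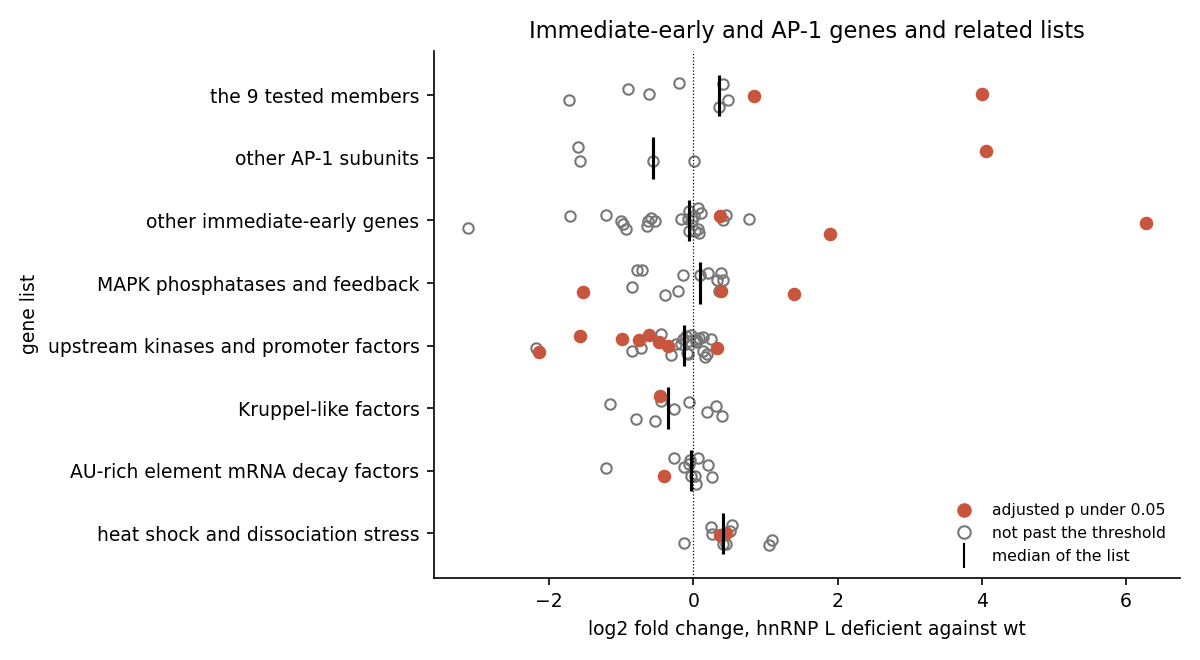
Log2 fold changes of the tested members and of the genes of 7 related lists, hnRNP L deficient against wt, 1 point per gene, filled where the adjusted p is under 0.05, with the list's median as a line. The members' points spread from -1.73 to 4.00, and those of the heat shock list lie mostly to the right of 0 with a median of 0.41.

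Exon bins were available for 5 libraries, without hnRNP L deficient replicate 1, and asked whether reads lay on a member's bins in the same proportions in both genotypes. Of 45 bins of the members 22 were tested, in *Fos*, *Jun*, *Egr1*, *Klf6* and *Dusp1*. Calls numbered 0 of the 22 with edgeR's diffSpliceDGE and 0 with limma's diffSplice, as did bins with an unadjusted p-value under 0.05 by either, and among all bins tested 0.0288% were called. The *Egr1* bin with the most reads took 79.7%, 93.8% and 74.0% of the gene's bin reads in wt, on 110, 30 and 134 reads, and 82.2% and 80.8% in hnRNP L deficient replicates 2 and 3, on 1323 and 2001 reads. *Junb*, *Jund* and *Ier2* had a single bin each, so that their proportions could not be compared.

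Of the members 4 (*Junb*, *Jund*, *Ier2* and *Klf2*) lie on chromosome 8, and in the GENCODE annotation *Jun*, *Jund* and *Ier2* consist of 1 exon. The annotation used for counting differed, with 5 bins for *Jun* and 1 for *Junb*. For these GENCODE has 1 and 3 merged exon blocks. The overlaps below and the exon lengths used for RPKM are those of GENCODE. *Junb* (chr8:84974484-84978718, - strand) overlaps *Prdx2* on the opposite strand, and *Dusp1* overlaps *Ergic1* in the same way. *Prdx2* had 41392, 38734 and 52918 reads in wt and 41674, 46474 and 53060 reads in hnRNP L deficient libraries, with overlapping groups. *Jun* and *Jund* have antisense genes, *Junos* and *Gm11175*, with at most 22 reads in a library. The kit was stranded, but the strand option of the counting is not given in the sources used here, so that reads in these overlaps cannot be assigned for certain.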

How the data were processed

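RNA of FL cells from 3 wt and 3 hnRNP L deficient embryos was compared, grouped by the labels. The authors aligned paired reads of stranded mRNA libraries to GRCm38 with TopHat2 2.0.10, counted them with HTSeq on genes and with the DEXSeq script on exon bins, and deposited raw counts. The Ensembl release and counting options are not given in the sources used here. Rows without a gene, among them reads without a feature (10.6% to 15.1% of uniquely aligned reads), were left out.

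Counts were fitted across all genes with edgeR 4.0.16 in R 4.3.3 (TMM, default expression filter, robust quasi-likelihood test, Benjamini-Hochberg adjustment, threshold 0.05). SE is the log2 fold change over the square root of F. Exon bins averaging 10 or more reads went into diffSpliceDGE. RPKM used merged GENCODE exon lengths of GRCm38. Scripts were tested on simulated counts. Alternatives were DESeq2 1.42.0, limma 3.58.1 (voom), other scalings, filters and prior counts, and leaving out libraries.

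The members and gene lists were chosen with earlier results of these data known. All members are named, *Hnrnpl* as the target, the 5 genes most like the members' median, and from each related list up to 4 genes with the smallest adjusted p under 0.05, or, where fewer than 2 pass, also the 2 with the largest log2 fold changes. *Fosl2*, *Egr2*, *Egr3*, *Egr4*, *Klf4*, *Klf10*, *Ltf*, *Ngp*, *Lcn2* and the overlapping genes were added after their values were seen. No exon bins of deficient replicate 1 were analysed here. The 95% intervals and p-values are from the edgeR fit and include the spread between embryos.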

Additional observations from a re-analysis of the deposited data

How the results depend on the processing

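The 2 higher calls among the members were 3 with limma-voom, which added *Ier2*, and numbered 2 under DESeq2 and the other scalings and filters. They ranged from 0 to 3 when 1 library was left out, with 0 without wt replicate 3 or any 1 of the hnRNP L deficient libraries. Lower calls among the members, 0 by edgeR, were 2 with DESeq2 and 1 with limma-voom, and 0 to 2 with 1 library left out. Higher calls in the related lists (9) were 5 with total counts, 21 with limma-voom and 0 to 20 with 1 library left out, and lower calls (10) were 20 with DESeq2, 25 with limma-voom and 0 to 24. Over all genes, higher calls (1341) were 2576 with limma-voom and 5 to 2312 with 1 library left out, and lower calls (1418) were 2227, 2774 and 0 to 2479 with DESeq2, limma-voom and 1 library left out. Without wt replicate 2 and hnRNP L deficient replicate 1, a pair chosen after the data were seen, they were 705 and 851, from 4 libraries. With total counts 37.8% of calls were higher, against 48.6%. For *Klf2* and *Dusp1* the log2 fold change turned to 0.064 and 0.0030 without that pair, and the other members kept their direction throughout. Causes were not tested. No paired analysis was possible because the labels share a number between genotypes for 1 embryo of each only. Depth limits *Klf2* and *Fosb*, and 3 embryos per genotype limit the rest.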

Other observations

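Marker lists of other cell types that were summed but not described above gave the following values. The 12 erythroid markers summed to 4012, 3369 and 3631 CPM in wt replicates 1 to 3 and in the hnRNP L deficient replicates to 3180, 4194 and 3760 CPM, with a median log2 fold change of -0.027. The 8 megakaryocyte markers summed to between 189 and 221 CPM in wt and between 180.2 and 211 CPM in hnRNP L deficient libraries. The 8 endothelial markers summed to 27.1, 58.2 and 33.004 CPM in wt and to 16.6, 13.99 and 14.3 CPM in hnRNP L deficient libraries, and the 8 mast and basophil markers to 21.7, 91.4 and 27.7 CPM and to 13.7, 52.8 and 41.7 CPM. In wt replicate 2 the endothelial, mast and basophil, granulocyte, monocyte, lymphoid, and stem and progenitor lists all had their highest sum. *Pecam1* alone was at 43.3 CPM of the endothelial sum there, against 13.5 and 18.6 CPM in wt replicates 1 and 3. Replicate 2 was the highest wt library for 3 of the 8 endothelial markers and for 39.9% of all genes tested. Among the stem and progenitor markers, 7 of 12 were called lower by edgeR with Benjamini-Hochberg adjustment, against 9.85% of all genes tested, and the median log2 fold change was -0.86.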
